A study of Drosophila melanogaster and Drosophila simulans with 122 samples.

Results

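Round spermatid (rST) cysts of D. mel WT were compared with round spermatid cysts of the replacement line, a D. melanogaster strain whose own mir-983 had been exchanged for the D. simulans copy. The cysts were chosen by their labels, as all single-cyst libraries of that stage from these genotypes, 5 D. mel WT cysts and 5 replacement cysts of the 122 libraries in the series. That this cyst stage had the most genes that differ was known when the comparison was set. Each library came from 1 cyst picked under the microscope from testes of mated males 2 to 3 days after eclosion, and a cyst was staged as rST by its many round or nearly round cells. In the replacement line, CRISPR/Cas9 had removed both mir-983 copies on the X chromosome and put 1 precursor of dsi-mir-983a in their place. D. mel KO, which carries the deletion without an insert, was made from w1118 by the same route and is shown beside both groups (6 rST cysts). In both edited lines the RFP marker was removed by a cross to a Cre stock carrying D*/TM3, Sb, and the X chromosome was then balanced with FM7a. Each genotype is 1 line, so the genetic background and the miRNA cannot be told apart, and how many males gave the 5 cysts of a group is not given in the sources used here. Between 17486702 and 21298306 reads were counted in the replacement cysts and between 19171668 and 24086166 in the D. mel WT cysts.

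A Drosophila spermatocyte transcribes most of the messages that its spermatids will need before it enters meiosis. Many of those messages are stored and translated only as the round spermatids elongate, when protamines replace histones, the fused mitochondria form the nebenkern and the axoneme grows. A small number of genes, the comet and cup genes, are transcribed again after meiosis. MiR-983 is a testis-expressed miRNA of Drosophila whose sequence has changed between species, and a miRNA finds its targets mainly through its seed, bases 2 to 8.

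The sequences below are shown because they cover part of what was exchanged at the mir-983 locus on chromosome X. They are the forward qRT-PCR primers for the 5p arm of the D. melanogaster and the D. simulans miRNA, written 5′ to 3′ with T for U. The first 4 bases are a tail that all 5 forward primers of the study share, and the capitals mark bases 2 to 8 counted after that tail.
dme-miR-983-5p: ggcgaTAATACGtttcgaac
dsi-miR-983-5p: ggcgaGTAATACctttcgaac
The D. simulans primer is 1 base longer (21 against 20), and 6 of the seed letters differ when both are counted from the first base after the tail. Both marked stretches hold TAATAC, which starts 1 base later in the D. simulans primer. Neither mir-983 copy is in the count table, and both were at an FPKM of 0 in all 16 D. melanogaster rST cysts, so these libraries do not measure the exchanged miRNA.

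Of 12406 genes tested at rST, 1420 were called, that is, had an FDR under 0.05 by edgeR's quasi-likelihood test and a fold change above 2. This is the background against which all gene groups are read, 11.4% of tested genes in either direction, 8.58% higher in D. mel WT (1064 genes) and 2.87% lower (356 genes). Normalized counts of the groups did not overlap for 686 of the higher and 249 of the lower genes, against 13.9% of all tested genes. Fold changes above 4 were found for 417 of the higher and 200 of the lower genes. Most called genes had low levels. The median FPKM of the higher genes was 3.06 in D. mel WT and 0.641 in the replacement line, that of the lower genes 0.597 and 3.07, and that of genes not called 5.2 and 3.52. With the genes in 5 equal classes of mean normalized count, 1.77% were called in the highest class (10 higher and 34 lower), against 14.4%, 18.1% and 15.7% in the 3 lowest classes. The median log2 fold change of all genes was 0.18 under TMM scaling and 0.06 under DESeq2's size factors, so small shifts of gene groups are given beside the median of all genes. Leaving out D. mel WT cyst 1 and replacement cysts 2 and 5 (chosen after seeing the data, as the cysts nearest to the neighbouring stages), 588 genes were called higher and 325 lower.

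The genes with the most complete differences were read in every cyst of 1 group and hardly at all in the other. Polr2A encodes the largest subunit of RNA polymerase II and lies on the X chromosome (FBgn0003277, chrX:11562800-11570326, minus strand, BDGP6). The D. mel WT cysts had 2585, 3989, 3968, 3737 and 3759 normalized counts of Polr2A, and the replacement cysts 78.9, 65.5, 68.5, 58.3 and 56.2. All D. mel WT cysts were far above all replacement cysts, and the D. mel KO cysts, at 3968 to 4596, lay with D. mel WT. The log2 fold change of Polr2A was 5.78 ± 0.15 (SE, n = 5 and 5, edgeR FDR 9.7e-14), a 55-fold difference. In FPKM, Polr2A was at 21.2 in D. mel WT and 0.338 in the replacement line. By D. mel KO cysts Polr2A is expressed at a steady level through spermatogenesis, from an FPKM of 19.9 at SG (spermatogonia) to 29.0 at eST (elongating spermatids).

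Vps52 encodes a subunit of the GARP complex, which tethers vesicles that return from endosomes to the Golgi (FBgn0031710, chr2L:5521281-5523898). Its normalized counts were 1515, 1518, 1902, 1718 and 1676 in the D. mel WT cysts and 56.1, 26.9, 39, 60.4 and 33.7 in the replacement cysts, without overlap. The log2 fold change of Vps52 was 5.27 ± 0.56 (SE, edgeR FDR 7.64e-06), a 38.5-fold difference. D. mel KO cysts were not alike for this gene: 5 cysts had 977 to 1239 normalized counts of Vps52 and the other 60.7. Exons of Vps52 overlap another gene and counting ignored the strand, so some reads may have been left out.

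AkhR, the receptor for adipokinetic hormone, is a fat body gene in its best known role, but was read here too (FBgn0025595, chr2L:6711286-6716186). D. mel WT cysts had 568, 572, 275, 319 and 538 normalized counts of AkhR and replacement cysts 10.3, 17.2, 9.48, 19.4 and 6.74. The groups did not overlap, and the log2 fold change was 5.15 ± 0.63 (SE, edgeR FDR 3.12e-05). Its highest mean in D. mel KO cysts was at pSC (late primary spermatocytes), at an FPKM of 12.7, and in D. mel KO rST cysts it ranged from 12.8 to 314 normalized counts, with 1 cyst at the replacement level.

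CG13700 was among the most abundant genes that were higher in D. mel WT (FBgn0036785, chr3L:18298742-18301260). The D. mel WT cysts held 6848, 11039, 13342, 12489 and 10464 normalized counts of CG13700 and the replacement cysts 1469, 1944, 2078, 1619 and 1996. That is a 5.95-fold difference without overlap (log2 fold change 2.57 ± 0.16, SE, edgeR FDR 8.13e-09). CG13700 is expressed most at eST in D. mel KO, at an FPKM of 447 against 86.4 at SG. The other abundant genes of this direction were CG33667 (2.07-fold, FPKM 1030 and 539), lncRNA:CR43835 (5.21-fold) and CG43052 (3.65-fold), the last overlapping another gene. For lncRNA:CR43835 the FPKM differed less than the counts, at 232 in D. mel WT and 123 in the replacement line. CG33667 lies close to CG33666 on X, a gene described below as uncertain, and whether reads were shared between them was not tested.

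The largest differences in the same direction were in genes with almost no reads in the replacement line. CG8100 (FBgn0036410, chr3L:14083615-14086421) had 1837, 1660, 1577, 2687 and 1202 normalized counts in the D. mel WT cysts and 2.29, 1.07, 3.16, 0 and 3.37 in the replacement cysts. That is 10621 reads against 9, 918 times as many per counted read (95% counting interval 484 to 2009, edgeR FDR 6.01e-08). In contrast to Polr2A, CG8100 was also near 0 in every D. mel KO cyst (0 to 7.73 normalized counts). lncRNA:CR46414 on 3L had 427 to 994 normalized counts in D. mel WT and 1 read over the replacement cysts, or 2825 times as many (interval 507 to 111606, edgeR FDR 1.33e-07). It was near 0 in D. mel KO too, at up to 5.52. lncRNA:CR45434, also on 3L, had 184 to 759 normalized counts in D. mel WT and 1 read over the replacement cysts (ratio 1513, interval 271 to 59783, edgeR FDR 7.29e-08), and 67.1 to 171 in D. mel KO. CG17283 on 3R had 125 to 290 normalized counts against 1 read (ratio 844, interval 151 to 33380, edgeR FDR 0.00117). CG13675 on 3L was the least even of these, with 1228, 943, 3013, 5954 and 13.2 normalized counts in the D. mel WT cysts against 1.08 to 9.67 in the replacement cysts (ratio 506, interval 328 to 829, edgeR FDR 7.88e-05). Cyst 5 of D. mel WT therefore lay close to the replacement cysts for CG13675.

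**Figure D1:**
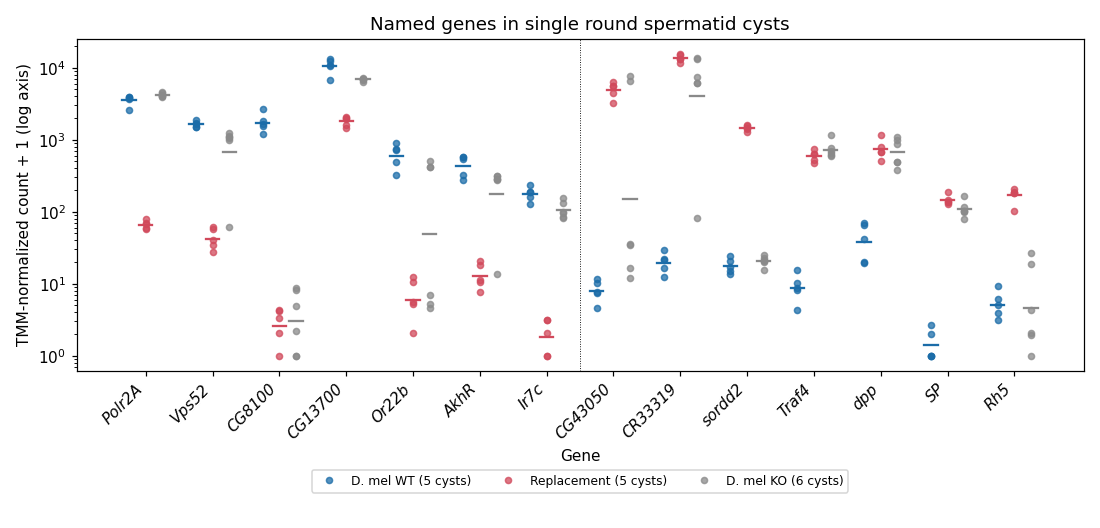
TMM-normalized counts plus 1 (log axis) of 14 named genes in each rST cyst of D. mel WT (blue, 5 cysts), the replacement line (red, 5) and D. mel KO (grey, 6), with geometric means as bars. For Polr2A the D. mel KO cysts lie with D. mel WT and for Traf4 with the replacement line, while for CG43050 and Or22b they fall at both levels.

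Among the named genes that were lower in D. mel WT, dpp encodes the BMP ligand Decapentaplegic, known in the testis as a signal from somatic cells to germline stem cells (FBgn0000490, chr2L:2428372-2459823). The D. mel WT cysts had 68.3, 19.2, 41.4, 18.7 and 63.7 normalized counts of dpp and the replacement cysts 681, 508, 1179, 792 and 677. Every replacement cyst was above every D. mel WT cyst, and D. mel KO cysts, at 384 to 1079, were near the replacement cysts. The log2 fold change of dpp was −4.17 ± 0.43 (SE, edgeR FDR 4.88e-06), an 18.0-fold difference. In D. mel KO cysts, dpp had its highest mean at rST, an FPKM of 6.17 against 1.81 to 2.46 at the other stages.

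Traf4 encodes a TNF-receptor-associated adaptor protein (FBgn0026319, chr2L:4361925-4380716) and its exons overlap another gene. It had 7.12, 7.68, 9.09, 14.7 and 3.31 normalized counts in D. mel WT and 469, 739, 530, 638 and 634 in the replacement line. The groups were apart by a log2 fold change of −6.15 ± 0.33 (SE, edgeR FDR 1.8e-09), and the D. mel KO cysts had 585 to 1166. Like dpp, Traf4 had its highest mean in D. mel KO at rST, an FPKM of 10.6 against 1.71 to 3.40.

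SP encodes the sex peptide, a seminal peptide of the accessory gland that alters the behaviour of mated females (FBgn0003034, chr3L:13301635-13301922). In D. mel WT cysts it had 0, 0, 1.01, 1.63 and 0 normalized counts, and in the replacement cysts 145, 128, 136, 189 and 134. With 3 reads in D. mel WT against 669, the level was 287 times lower (interval 97.6 to 1393, edgeR FDR 1.41e-08). The D. mel KO cysts had 77.2 to 163 normalized counts of SP. Nepl6, of the neprilysin-like metallopeptidases, had 0.96 to 4.98 normalized counts in D. mel WT and 124 to 285 in the replacement line (log2 fold change −6.20 ± 0.49, SE, edgeR FDR 2.3e-07). Rh5, the blue opsin of photoreceptors, had 2.14 to 8.27 and 101 to 209 (log2 fold change −5.24 ± 0.81, SE, edgeR FDR 0.000317). Neither overlapped between the groups.

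The largest differences in this direction were again close to all or none. CG43050 (FBgn0262352, chr2L:13119294-13120767) had 3.56, 6.72, 9.09, 6.52 and 10.8 normalized counts in the D. mel WT cysts and 5552, 4519, 6389, 5588 and 3233 in the replacement cysts (log2 fold change −9.42 ± 1.93, SE, edgeR FDR 0.00304). The D. mel KO cysts were split, with 11 to 35.1 normalized counts of CG43050 in 4 cysts and 6623 and 7667 in the others. CR33319, a pseudogene on 2L with exons that overlap another gene, had 11.4 to 28.8 normalized counts in D. mel WT and 11808 to 15577 in the replacement line (log2 fold change −9.47 ± 0.96, SE, edgeR FDR 3.77e-06). lncRNA:CR45449 on 2L had 75.2 to 232 normalized counts in the replacement cysts and not a single read in the other group, at least 274-fold lower there if 3 counts in the whole group are taken as the floor (edgeR FDR 7.95e-05). lncRNA:CR43404 on 2L had 4 reads against 2886 (ratio 927, interval 362 to 3405, edgeR FDR 1.28e-09). CG43291 on 3R had 2 reads against 534 (ratio 343, interval 94.5 to 2840, edgeR FDR 4.21e-09). Intervals and floors cover counting error only.

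CG33666 and sordd2, both on X, were also called strongly, but their deposited counts and FPKM disagree. CG33666 had 4.89 to 8.64 normalized counts in D. mel WT and 2699 to 3841 in the replacement line, whereas its FPKM was 159 and 499. For sordd2 the normalized counts were 12.8 to 23.2 and 1276 to 1591, and the FPKM 45.1 and 104. Both genes are therefore uncertain, and the cause of the disagreement was not tested. Jhbp13 on 2L, named for the juvenile hormone binding proteins, overlaps another gene. It had 56.5 to 394 normalized counts in D. mel WT and 1 read over the replacement cysts (ratio 939, interval 168 to 37099, edgeR FDR 0.000908).

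The most abundant of the lower genes changed by about 2-fold. lncRNA:CR9284 on 2R had 26615 to 47702 normalized counts in D. mel WT and 84218 to 123679 in the replacement line (2.52-fold, edgeR FDR 0.0279). The D. mel KO cysts lay on both sides of D. mel WT, with 12276 to 15357 in 3 cysts and 49863 to 56058 in the other 3. CG17377 on 2L (2.05-fold, edgeR FDR 7.41e-05) and CG45765 on the Y chromosome (2.05-fold, edgeR FDR 0.00384) were also higher in the replacement line without overlap. The calls of lncRNA:CR9284 and CG17377 were lost with the position of each cyst as a covariate, and also without D. mel WT cyst 1, replacement cyst 2 or replacement cyst 5 (lncRNA:CR9284 also without D. mel WT cyst 5 or replacement cyst 4). That of CG45765 was lost without D. mel WT cyst 1 or replacement cyst 3.

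The genes called were next grouped by their usual stage, taken as the stage with the highest mean FPKM over D. mel KO cysts. Those cysts are on neither side of the comparison, but the rST ones enter its estimate of spread. Genes whose usual stage was pSC were the ones most often higher in D. mel WT, 483 of 3307 (14.6%, against 8.58% of all genes), and 99 (2.99%) were lower. Of 5823 genes with the usual stage SG, 395 (6.78%) were higher and 74 (1.27%) lower. Of 1486 genes with the usual stage rST, 99 (6.66%) were higher and 104 (7%) lower. Of 1790 genes of eST, 87 (4.86%) were higher and 79 (4.41%) lower. The share of genes lower in D. mel WT was thus largest for genes that peak at rST in D. mel KO. The median log2 fold change was 0.31 for SG genes, 0.39 for pSC genes, −0.24 for rST genes and −0.30 for eST genes, against 0.18 for all genes. By the same rule, AkhR, Or22b, Ir7c and CG43050 were pSC genes, dpp and Traf4 rST genes, and Polr2A, Vps52 and CG13700 eST genes. These labels rest on means over D. mel KO cysts, and for CG43050, Or22b, Vps52 and AkhR the D. mel KO rST cysts fell at both levels. Some means were also close, with an FPKM of 82.7 at pSC and 75.5 at rST for CG43050, and 39.7 at eST and 36.1 at SG for Vps52.

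The stage assignment matters for genes of rST. With stages taken from D. mel WT cysts, which are part of the comparison, 220 of 1843 rST genes (11.9%) were higher and 54 (2.93%) lower, while 11.8% of pSC genes were higher. A gene that is on in 1 line only at rST is assigned to rST by that line, so the rST row of either assignment is partly set by the line used.

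**Figure D2:**
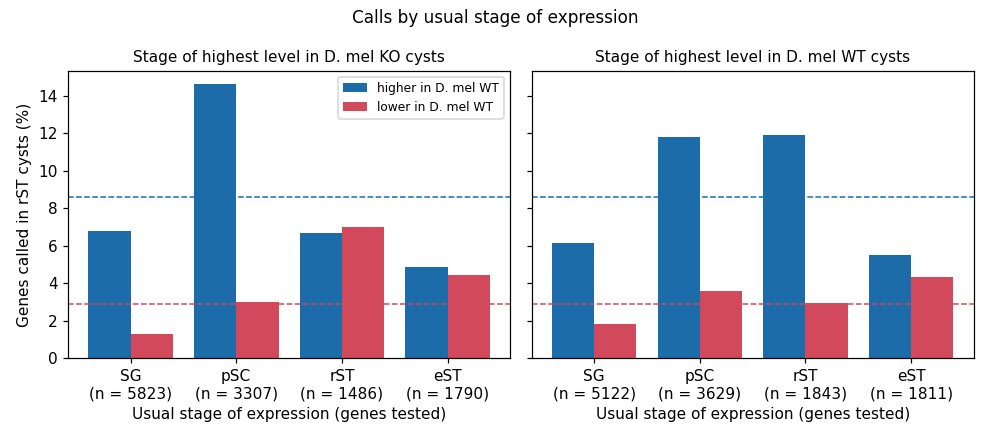
Percentage of genes called higher (blue) and lower (red) in D. mel WT rST cysts by the stage of their highest mean FPKM, in D. mel KO cysts (left) or D. mel WT cysts (right), with the percentages for all tested genes as dashed lines. Genes that peak at pSC exceed the blue line at both sides (14.6% and 11.8%), whereas genes that peak at rST do so only with the D. mel WT stages (6.66% and 11.9%).

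The mean position of the cysts between the stages differed by group, but the difference did not pass an exact test. A position was computed for each cyst from the FPKM of 11554 genes, on an axis where 0 is the mean of D. mel KO pSC cysts and 1 the mean of D. mel KO eST cysts. The D. mel WT rST cysts stood at 0.129, 0.515, 0.749, 0.391 and 0.458, and the replacement cysts at 0.621, 0.926, 0.487, 0.749 and 0.966. D. mel WT cysts were thus nearer to pSC on average (0.448 ± 0.224 against 0.75 ± 0.202, SD, n = 5 each), but the groups overlapped and the exact two-sided permutation test gave p = 0.0635. Genes with at least 1 read numbered 13459 to 14122 in D. mel WT cysts and 13118 to 13546 in replacement cysts (exact permutation p = 0.0159). With the position as a covariate in edgeR, 580 genes were called higher and 385 lower, and the median log2 fold changes by usual stage were 0.04, 0.05, −0.01 and −0.05 for SG, pSC, rST and eST. In that fit 8.41% of pSC genes were higher, against 4.68% of all genes. The position comes from the expression of the same cysts, so stage medians move towards 0 in that fit partly by construction. Position and genotype cannot be fully told apart with 5 cysts a group.

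**Figure D3:**
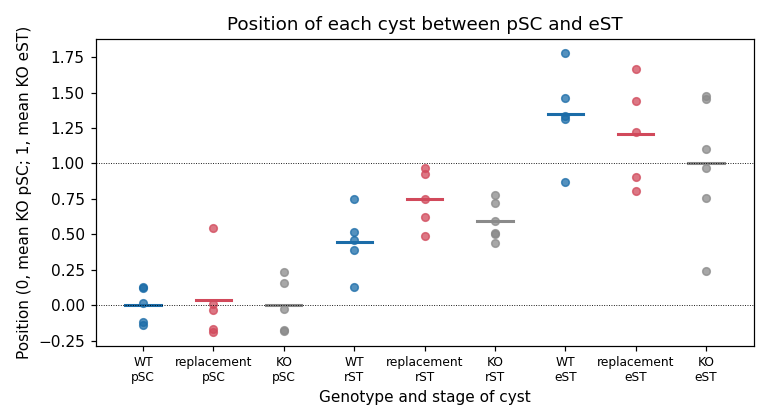
Position of each cyst (points) and group mean (bars) on the axis from the mean D. mel KO pSC cyst (0) to the mean D. mel KO eST cyst (1), for D. mel WT, replacement and D. mel KO cysts of 3 stages. The rST cysts of D. mel WT run from 0.129 to 0.749 and those of the replacement line from 0.487 to 0.966, so both groups overlap.

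The defining markers of the stage were present in both groups. Summed over 12 genes of round and elongating spermatids, among them the comet gene soti and the protamines ProtA and ProtB, the FPKM was 6507 to 9909 in D. mel WT and 9479 to 11292 in the replacement line. None of the 12 was called. Markers of pSC summed to 307 to 594 and 256 to 551 over 8 genes, and those of spermatogonia to 10.8 to 17.3 and 8.42 to 14.6 over 5 genes, against 186 in the median D. mel WT SG cyst.

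The genes of spermatid differentiation were measured in depth, and almost none was called. Most of those listed here lay in the highest class of mean normalized count (1263 and above). In that class 1.77% of all tested genes were called, so the lack of calls is near the share for that level. None of the 9 genes for sperm leucyl aminopeptidases, abundant proteins of the mitochondrial derivatives of sperm, passed the 2-fold limit, although 8 were lower in D. mel WT at an FDR under 0.05 (median log2 fold change −0.53, against 0.18 for all genes). Without the 2-fold limit 21.4% of all tested genes had an FDR under 0.05, 12.4% higher and 9.07% lower. S-Lap3, for example, had 101309 ± 24972 normalized counts in D. mel WT and 149902 ± 19969 in the replacement line (SD, n = 5 each, edgeR FDR 0.0174). Of 17 genes for proteins of the sperm tail, 7 had an FDR under 0.05 and a lower level in D. mel WT (median −0.43), among them Tektin-A (log2 fold change −0.65 ± 0.14, SE, edgeR FDR 0.00561) and Mst84Dd (−0.68 ± 0.15, SE, edgeR FDR 0.00499). Among 14 comet and cup genes, which are transcribed after meiosis, 5 were lower at that FDR (median −0.38), and p-cup changed most of these with 1083 ± 180 normalized counts in D. mel WT and 1718 ± 211 in the replacement line (SD, edgeR FDR 0.00154). Of 9 tubulin genes 3 were lower, among them betaTub85D, the testis β-tubulin (log2 fold change −0.48 ± 0.15, SE, edgeR FDR 0.0282). All 9 genes for protamines and transition proteins had negative log2 fold changes (median −0.33), but none had an FDR under 0.05. With the position covariate these medians were −0.27 for the leucyl aminopeptidases, −0.10 for the sperm tail, −0.06 for comet and cup genes and −0.05 for protamines, against 0.01 for all genes.

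Nor was any gene of the spermatocyte programme lists called in the reported fit, against 11.4% of all tested genes. At that share a list of 9 to 15 genes would hold few calls, so their absence says little. None of 15 genes of the testis TAFs, the tMAC complex and the testis bromodomain proteins passed both limits, and 1, sa, had an FDR under 0.05 (log2 fold change 0.81 ± 0.28, SE, edgeR FDR 0.0484). Some of the 15 differed widely between cysts. tbrd-1 had 908 ± 1119 normalized counts in D. mel WT and 281 ± 192 in the replacement line (SD, edgeR FDR 0.101). tbrd-3 went the other way, at 187 ± 229 and 731 ± 431 (SD, edgeR FDR 0.154). The median of the 15 was 0.51, and it became −0.34 with the position covariate, under which 3 of them were called. DESeq2's test and DESeq2's size factors each called 1 of them. None of 10 genes of meiotic entry and division was called (median 0.38, and −0.75 with the covariate), and none of 9 genes of spermatogonia and nuage. The nebenkern (17 genes), axonemal dynein and Y-linked fertility (21), testis proteasome (14), testis translation initiation (12) and cytoplasmic ribosomal protein genes (92) had no called member either. Of 92 ribosomal protein genes, 6 had an FDR under 0.05 and were higher in D. mel WT and 2 were lower (median 0.35).

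A few genes of meiosis, chromatin and cell death were called, each higher in D. mel WT. sunn encodes a cohesion protein that holds sister chromatids in meiosis, and it was the 1 called gene of 9 for homolog conjunction and cohesion. Its normalized counts were 495, 182, 95.9, 125 and 110 in D. mel WT and 17.2, 10.7, 15.8, 23.7 and 22.5 in the replacement line, without overlap (log2 fold change 3.48 ± 0.53, SE, edgeR FDR 0.000294). D. mel KO was at the replacement level, with 3.19 to 27.5. cid, the centromeric histone H3 variant, had 42.4 to 85.4 and 5.37 to 36.6 normalized counts (log2 fold change 1.68 ± 0.44, SE, edgeR FDR 0.0139) and was the 1 called gene of 12 for histones and chromatin. In the piRNA pathway 2 of 28 genes were called. qin, a Tudor domain protein that overlaps another gene, had 50.5 to 98.9 against 1.07 to 16.9 (edgeR FDR 0.0116), and cuff, which acts in piRNA cluster transcription in the ovary, had 89.6 to 150 against 37.8 to 83.2 (edgeR FDR 0.024). All these lists had called shares near the 8.58% of all genes or rest on 1 gene. sunn kept its call under every alternative run, but with the position covariate cid (log2 fold change 1.03, edgeR FDR 0.0856), qin (2.57, edgeR FDR 0.0603) and cuff (0.904, edgeR FDR 0.118) were no longer called. cuff also lost its call without D. mel WT cyst 1 or 2 or replacement cyst 1 or 5, and cid with the replicate block or with these 2 groups alone in the fit.

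Among 25 genes of individualization and the caspase pathway, by which spermatids shed their cytoplasm, Fadd and Dcp-1 were higher. That is 8% of the list, about the share of all genes (8.58%). Fadd, the adaptor that binds the caspase Dredd, had 236, 162, 116, 102 and 96.8 normalized counts in D. mel WT and 77.8, 4.3, 17.9, 35.6 and 51.7 in the replacement line (log2 fold change 1.93 ± 0.50, SE, edgeR FDR 0.0124). Dcp-1, an effector caspase, had 24.2 to 83.3 and 12.4 to 35.8 with overlap between the groups (log2 fold change 1.27 ± 0.40, SE, edgeR FDR 0.0326). With the position covariate neither was called, at log2 fold changes of 1.64 for Fadd (edgeR FDR 0.0809) and 0.284 for Dcp-1 (edgeR FDR 0.565), and Dcp-1 lost its call under 10 of 19 alternatives, among them leaving out D. mel WT cyst 1, 4 or 5 or replacement cyst 2, 4 or 5. Dredd itself was 1.85-fold higher at an FDR of 0.000708 and stayed under the 2-fold limit. In the other direction 8 genes of the same list were lower at an FDR under 0.05 without reaching 2-fold, among them orb2, a translational regulator of spermatids (log2 fold change −0.43 ± 0.15, SE, edgeR FDR 0.0496). Of 89 nuclear genes of oxidative phosphorylation, ND-B8, a complex I subunit, was the 1 called, with 46.3 to 240 normalized counts in D. mel WT and 252 to 433 in the replacement line (edgeR FDR 0.034). ND-B8 lost its call under 10 of 19 alternatives, with the covariate (log2 fold change −0.893, edgeR FDR 0.262) and without D. mel WT cyst 1, 2 or 5 or replacement cyst 2, 4 or 5 among them.

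**Figure D4:**
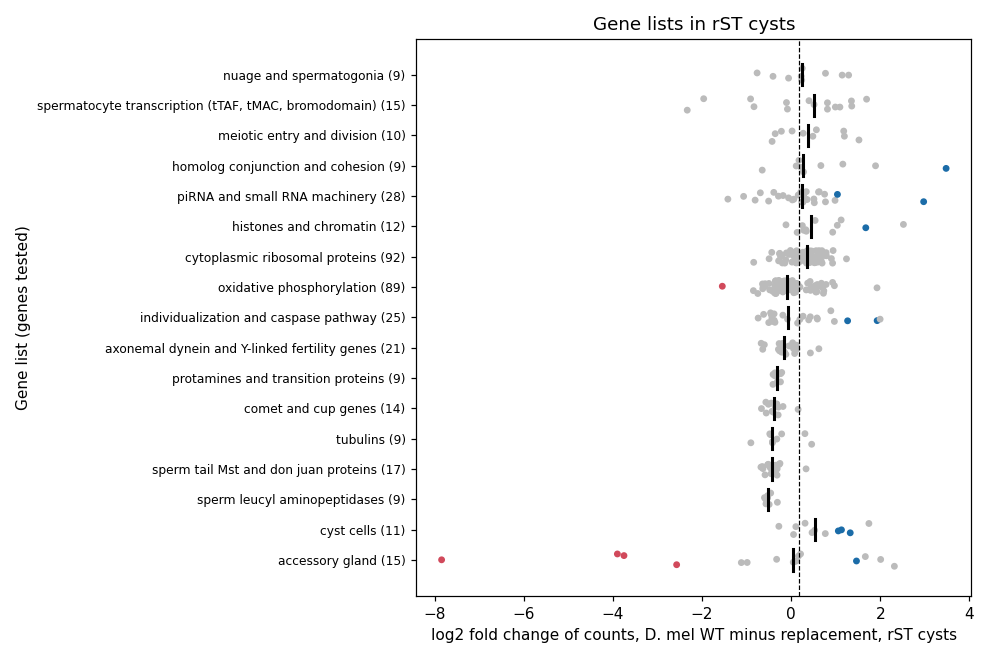
log2 fold changes of counts, D. mel WT minus replacement rST cysts, for the genes of 17 lists (points, blue called higher, red called lower, grey not called), with list medians as bars and the median of all genes (0.18) as a dashed line. The lists of protamines, comet and cup genes, tubulins, sperm tail proteins and sperm leucyl aminopeptidases have medians left of the dashed line and no called gene, the last at −0.53.

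Chemosensory genes are best known from sense organs. Among 105 tested genes for chemosensory receptors and odorant binding proteins, 24 (22.9%, against 8.58% of all genes) rose in D. mel WT and 3 (2.86%) fell, with a median log2 fold change of 0.80. This family was chosen after values had been seen, and Or22b and Ir7c are its members in the naming rule. Or22b, an odorant receptor on 2L (chr2L:1522697-1524257), had 321, 495, 752, 727 and 906 normalized counts in D. mel WT and 11.4, 9.67, 4.21, 1.08 and 4.5 in the replacement line (log2 fold change 6.67 ± 1.31, SE, edgeR FDR 0.0023). In D. mel KO, 3 cysts had 411 to 506 normalized counts of Or22b and 3 had 3.60 to 5.88. Ir7c, an ionotropic receptor gene on X (chrX:7874394-7876847), had 128 to 232 normalized counts against 0 to 2.16 (log2 fold change 7.20 ± 0.46, SE, edgeR FDR 1.81e-08), and 81.7 to 155 in D. mel KO. Ir76a, chosen after its values were seen, was at 342 ± 60.6 against 44.1 ± 9.13 normalized counts (SD, edgeR FDR 1.81e-08). Of the 3 lower members, Or85e, also outside the naming rule, was at 0.384 ± 0.859 against 124 ± 75.1 (SD, edgeR FDR 6.68e-05). The usual stage was pSC for 17 of the 27 called members and for 56 of all 105. Of all genes with the usual stage pSC, 14.6% were higher. Calls in either direction also depended on level (14.4% to 18.1% in the 3 lowest classes of mean count). The family was not compared with other genes of equal stage or level.

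Noncoding genes were also called more often than protein-coding ones. Of 1075 long noncoding RNAs 200 (18.6%) rose and 87 (8.09%) fell in D. mel WT, against 820 (7.43%) and 255 (2.31%) of 11041 protein-coding genes. Calls also depended on level (14.4% to 18.1% in the 3 lowest classes of mean count, 1.77% in the highest), and the 2 kinds of gene were not compared at equal levels. Of 128 antisense RNAs 22 (17.2%) were higher and 4 (3.12%) lower, but reads of an antisense RNA and its partner cannot be told apart here. Other families looked at after values had been seen were mitochondrial ribosomal proteins, with 9 of 72 (12.5%) higher and none lower, and RNA polymerase II with its general factors, with 5 of 35 (14.3%) higher. Beside Polr2A these were Taf11, Taf3, Polr2J and TfIIA-S-2, at log2 fold changes of 2.05, 1.08, 1.02 and 1.35 (edgeR FDR 0.00036, 0.0217, 0.0342 and 0.0175). Of 61 cytochrome P450 genes 6 (9.84%) were higher and 5 (8.2%) lower, against 8.58% and 2.87% of all genes. With the position covariate the median log2 fold change went from 0.53 to 0.20 for mitochondrial ribosomal proteins and from 0.39 to 0.07 for RNA polymerase II and its factors. For all genes it went from 0.18 to 0.01.

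Among 2L, 2R, 3L, 3R and X, the lower genes were most frequent on 2L, where 130 of 2441 (5.33%) were called lower, against 2.75% on 2R, 2.16% on 3L, 1.90% on 3R and 2.49% on X. Among these 5 arms the share of higher genes ran from 7.38% on 3R to 10.5% on 2L. With the position covariate 5.28% of genes on 2L were called lower and 1.97% to 3.40% on 2R, 3L, 3R and X. Of the windows of 1 Mb, which were not tested, chr2L:3000001-4000000 held the most lower genes, 13 of 106.

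The summed markers of other cells did not overlap between the groups for 2 cell types, cyst cells and the accessory gland. The FPKM of 5 cyst cell markers summed to 16.2 to 23.7 in D. mel WT and 7.95 to 12.4 in the replacement line, without overlap, and to 7.19 to 14.4 in D. mel KO. The largest share was that of so, a homeodomain factor of somatic cyst cells, at 10.9 to 14.6 against 3.73 to 6.81 FPKM (log2 fold change 1.06 ± 0.29, SE, edgeR FDR 0.0184). It was the only one of the 5 without overlap. eya (2.21 to 4.74 against 1.79 to 4.17 FPKM), zfh1 (0.154 to 1.77 against 0.13 to 0.778) and Six4 (1.79 to 4.59 against 1.06 to 1.87) overlapped. tj, the defining factor of early cyst cells, was at most 0.06 FPKM in every cyst. In the longer list of 11 tested cyst cell genes 3 were called higher and none lower, the others being ptc, the Hedgehog receptor (edgeR FDR 0.0214), and puc, a phosphatase of the JNK pathway (edgeR FDR 0.0143), both with overlap. None of the 3 was called with the position covariate (so 1.09, edgeR FDR 0.0578, ptc 0.794, edgeR FDR 0.301, and puc 0.532, edgeR FDR 0.254, on the log2 scale) or without D. mel WT cyst 1 and replacement cysts 2 and 5, and the median of the list was 0.53 in the first fit and −0.04 with the covariate. Leaving out 1 cyst also ended the call of so (D. mel WT cyst 3 or 4, replacement cyst 3 or 5), of ptc (D. mel WT cyst 5, replacement cyst 4 or 5) and of puc (D. mel WT cyst 1, replacement cyst 2). Somatic cells enclose every cyst. Fewer cells of a type and less RNA per cell cannot be told apart here, and the part of somatic cells in the called genes was not tested. Hub and sheath muscle markers overlapped between the groups, at sums of 6.87 to 16.1 against 7.74 to 12.0 FPKM and of 6.56 to 34.3 against 8.33 to 31.8.

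Accessory gland markers summed to 1.63 to 10.9 FPKM over 6 genes in D. mel WT and 11.5 to 17.2 in the replacement line. In the replacement cysts most of it was SP (9.68 to 15.0 FPKM), and in D. mel WT most was Acp36DE (1.30 to 10.6 FPKM, against 0.619 to 2.2). Of 15 tested accessory gland genes 4 were called lower and 1, Acp36DE, higher. Acp26Aa, the precursor of ovulin, had 0 to 2.14 normalized counts in D. mel WT and 10.7 to 28.1 in the replacement line (7 reads against 89, edgeR FDR 0.000108). Acp53C14b had 7 reads over the replacement cysts, in 3 of the 5, and not a read in D. mel WT (edgeR FDR 0.0486). Its call was lost under 11 of 16 alternatives, among them leaving out any 1 D. mel WT cyst or replacement cyst 1, 3 or 4. The other defining markers, Acp62F, lectin-46Cb and Sfp33A3, were at or under 0.52 FPKM in all 10 cysts, so the markers did not rise together.

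The same contrast was made in samples that share no library with the rST cysts. Of the 1346 genes called at rST and tested in whole testes (3 libraries per line, from males 3 to 5 days after eclosion, older than those of the cysts), 91.1% had the same sign there, against 70.1% of all genes tested in both, and 502 were called in the same direction, 37.3% of the rST genes and 55.2% of the 909 testis genes. In testes 7.69% of genes were called. The share called in testes too was 18.1% for genes with the usual stage SG, 40.8% for pSC, 60.5% for rST and 53.2% for eST. At pSC, 23.8% of 1394 rST genes were called in the same direction and none in the opposite one (3.95% of all genes called at pSC). At eST 24.6% of 1347 were called the same way and 3 the opposite way (background 5.19%), and at SG 8.36% of 1364 and 4 genes (background 1.9%). These samples come from the same lines, so they repeat the measurement of the lines and not the making of them.

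Polr2A was 55-fold different at rST, and its log2 fold changes were 4 at pSC, 5.9 at eST, 1.00 at SG and 1.45 in testes (edgeR FDR 1.81e-09 in testes). Vps52 had 2.4 at pSC, 4.53 at eST, 0.586 at SG and 2.95 in testes. dpp had −0.19 in testes (edgeR FDR 0.191), −2.24 at pSC and −1.18 at eST (edgeR FDR 0.362 and 0.551), so its difference passed the test at rST and in none of those 3, but dpp did not pass the test of the difference between stages. sunn had 2.59 in testes (edgeR FDR 9.68e-09), and cid −0.0319 there (edgeR FDR 0.94). Tested as a difference between stages, the effect at rST differed from that at SG for 202 of 13603 genes at an FDR under 0.05 (1.48%) and from that at eST for 242 (1.78%). From pSC it differed for 0 genes by edgeR, with 1244 at an unadjusted p under 0.05. The spread between libraries differed by sample type, and its part in the numbers of called genes was not tested. The biological coefficient of variation was 41% at rST, 55.8% at pSC, 59.7% at eST, 71.1% at SG and 9.07% in whole testes.

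**Figure D5:**
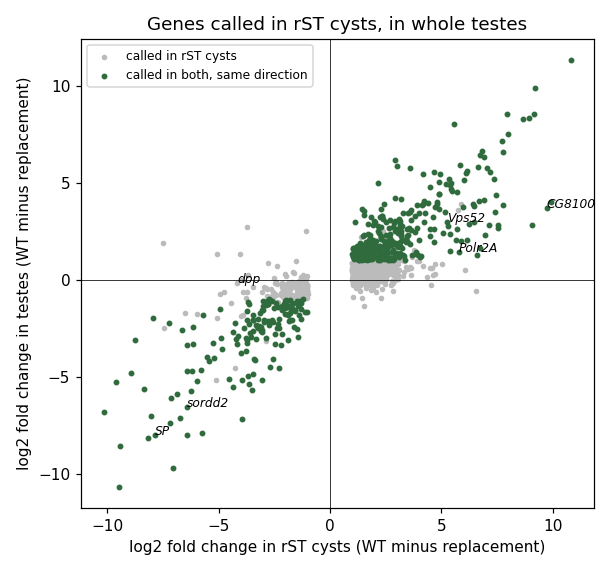
log2 fold changes, D. mel WT minus replacement, in rST cysts (x axis) and whole testes (y axis) for the 1346 genes called at rST and tested in testes, green where called in both in the same direction. SP, sordd2, Vps52 and CG8100 lie in the same direction in both, and dpp lies near 0 in testes.

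The D. mel KO cysts, which enter neither side of the comparison, fell at both levels for many all-or-none genes. Of the 132 called genes with more than 16-fold change and no overlap, all 6 D. mel KO cysts were nearer to the D. mel WT mean for 36 and nearer to the replacement mean for 45, and for 51 the 6 cysts were divided. On X all 6 cysts were nearer to D. mel WT for 20 of 23 genes and divided for 1. On 2L they were divided for 19 of 44 genes, on 2R for 15 of 24, on 3L for 12 of 29 and on 3R for 4 of 12. On 2R, cysts 1, 2, 3 and 5 were nearer to D. mel WT for 12 to 15 of the 24 genes and cysts 4 and 6 for 2 and 3. Over all called genes the D. mel KO mean was nearer to D. mel WT for 498 and nearer to the replacement line for 566 of the higher genes, and for 131 and 225 of the lower genes.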

How the data were processed

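The authors trimmed reads with Trimmomatic 0.36, mapped them with HISAT2 2.2.0 and obtained counts per gene with HTSeq 0.6.0 without strand, and the counts were deposited as raw numbers. The authors also deposited FPKM values per gene from StringTie 2.1.4. Reads on overlapping exons are left out by HTSeq. cDNA of each cyst was amplified without molecular identifiers.

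Genes had to exceed a mean of 5 normalized counts in any of the 3 genotypes (12406 of 17612 passed). The rST cysts of these genotypes were scaled by TMM and tested in 1 fit by edgeR 4.0.16's quasi-likelihood test (limma 3.58.1, R 4.3.3), two-sided, with Benjamini-Hochberg adjustment. A gene was called at an FDR under 0.05 and an absolute log2 fold change above 1. Other stages and testes were fitted separately, and differences between stages in 1 fit of all cysts. Positions are projections of log2(FPKM + 1), compared by exact permutation over the 10 cysts (Python 3.11.15, scipy 1.17.1). In a simulation, 77.5% of 200 genes given a log2 change of 2 were recovered, and 5.17% of unchanged genes had a p under 0.05. The p-values measure the spread between single cysts, which may share males. That spread is estimated over the cysts of all 3 genotypes. D. mel KO cysts thus enter each SE and FDR, also where they fell at both levels, as for CG43050, Or22b and Vps52. Each SE is the absolute log2 fold change divided by the square root of the F statistic.

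Named genes were, in each direction, the 6 called genes with the largest change, the 6 with a usual name and the largest change, and the 4 with the highest FPKM, all without overlap and with a mean of at least 100 normalized counts in the higher group, and up to 3 called genes per list. The members and lists were chosen with earlier results of these data known. Alternatives were DESeq2 1.42.0 or its size factors, other filters (none, or 50 counts), a fit of only the 2 groups, the replicate number as a block, the position as a covariate, protein-coding genes alone, and leaving out each cyst. Coordinates are those of the deposited files on BDGP6, and gene classes come from an Ensembl annotation. Seed sites of miR-983 in 3′ UTRs were not analysed here.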

Additional observations from a re-analysis of the deposited data

Results flagged for a closer look

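In the 94 groups of 5 cysts examined, 12 had 1 cyst whose gap to the nearest other exceeded Dixon's 95% limit, and chance gives about 1 in 20. In D. mel WT cyst 1, which stood nearest to pSC, Polr2A was at 2585 normalized counts against 3737 to 3989 in the other cysts, CG45765 at 152 against 271 to 319 and sunn at 495 against 95.9 to 182. Cyst 5 of D. mel WT had 759 normalized counts of lncRNA:CR45434 against 184 to 284. In the replacement line, cyst 3 had 435 normalized counts of lncRNA:CR43835 against 293 to 331, cyst 4 had 189 of SP against 128 to 145, and cyst 2 had 101 of Rh5 against 183 to 209. Single reads set the other flags, at 1.07 normalized counts of lncRNA:CR46414 in replacement cyst 2 and 1.08 of lncRNA:CR45434, Jhbp13 and CG17283 in cyst 4, where the other cysts had 0. Acp53C14b was at 5.72 in replacement cyst 1 against 0 to 1.08. Apart from Acp53C14b, the 2 genotypes did not overlap for any of these genes.

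Some named genes had a D. mel WT minus replacement difference at rST that differed from that at another stage in edgeR's test over all cysts. Compared with SG, the log2 fold change at rST was larger by 4.69 ± 0.47 for Polr2A (SE, edgeR FDR 7.38e-10) and by 4.61 ± 0.64 for Vps52 (edgeR FDR 5.83e-06). The effect at rST minus that at SG was −8.47 for lncRNA:CR43404 (edgeR FDR 6.83e-06), −10.5 for SP (edgeR FDR 8.06e-08), −6.71 for Acp26Aa (edgeR FDR 0.00259) and −7.11 for Acp53C14b (edgeR FDR 0.0203). At SG itself the log2 fold change of lncRNA:CR43404 was −1.24 (edgeR FDR 0.521), whereas that of the accessory gland genes had the opposite sign to rST, at 2.6 for SP (edgeR FDR 0.0457), 2.69 for Acp26Aa (edgeR FDR 0.245) and 3.11 for Acp53C14b (edgeR FDR 0.0465). Accessory gland markers were at a median sum of 395 FPKM in D. mel WT SG cysts. Compared with eST, the difference was −6.67 for CG43291 (edgeR FDR 0.0319) and −1.83 for sordd2 (edgeR FDR 0.0146).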

How the results depend on the processing

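Of 42 named genes, 28 kept their call under every alternative that was run (up to 19 each), 14 lost it under at least 1 and none changed direction. CG33667 lost it under DESeq2's size factors, DESeq2's test and without D. mel WT cyst 2. With the position of each cyst as a covariate 12 named genes lost their call, and with DESeq2 3 did. The number of calls moved from 1420 to 913 (588 higher) without D. mel WT cyst 1 and replacement cysts 2 and 5, an alternative chosen after seeing the data, and 795 of the calls were shared. The covariate gave 580 higher genes and 965 calls, of which 755 were shared. Genes with an FDR under 0.05 numbered 2661 in the reported fit, which is also the count of calls without a limit on the fold change, 1664 with only the 2 groups fitted, 1430 with the covariate and 1523 without the 3 cysts. DESeq2's size factors gave 1249 calls, DESeq2's test 1467, no filter 1353, a filter of 50 counts 987 and protein-coding genes alone 1046. Leaving out each cyst in turn gave 1062 to 1690 calls, 749 to 1345 higher, 300 to 360 lower and 1728 to 3194 with an FDR under 0.05, the lowest of the last without replacement cyst 5. By usual stage, the covariate gave 142 higher and 117 lower SG genes, 278 higher and 154 lower pSC genes and 40 lower eST genes, and leaving out the 3 cysts 148 higher SG and 288 higher pSC genes. Stages from D. mel WT gave 220 higher and 54 lower rST genes, and a minimum of 1 FPKM 57 higher eST genes. The difference in position was −0.302, over the 1000 genes with the largest change −0.247 (exact permutation p = 0.159), with a pseudocount of 0.1 −0.326 (exact permutation p = 0.0397) and with 1 cyst left out −0.377 to −0.222, where it passed the exact test without D. mel WT cyst 3 or replacement cyst 3 (p = 0.0317 each).

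The replicate numbers do not pair the cysts, since same-numbered cysts correlated at 0.326, 0.118, −0.431, 0.0052 and −0.0994, and not every cyst correlated best with its own number. With the replicate block 736 genes were called (504 higher and 232 lower), 712 of them shared, 851 had an FDR under 0.05 and 8 named genes lost their call. Seed sites of miR-983, and the choice of site types, were not run. Genes with few reads, such as Acp53C14b with 7 in all, rest on counts too low to order.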
